A study of Mus musculus with 6 samples.

Results

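The 44 genes described here encode the enzymes, transporters and regulatory subunits of glycolysis, glycogen metabolism and the phosphocreatine system, and they were taken by name from the 54189 lines of the RNA-seq count table. Each gene was put in 1 of 3 classes from textbook knowledge, but with earlier results of these data known. The 14 muscle isoforms are the forms typical of skeletal muscle, the 16 broad isoforms are those of most or of other tissues, and the 14 shared genes have no separate muscle form among the listed genes or are used by most tissues. The RNA came from whole Achilles tendon of mice at 4 weeks of age, with 1 library and 1 mouse per genotype. Control mice were Dicer f/f, with floxed Dicer alleles and no Cre. ScxHt mice were ScxCre/+ Knock In with Dicer +/+. Dicer cKO mice were ScxCre/+ Knock In with Dicer f/f. The Cre allele, carried by both ScxHt and Dicer cKO, is a knock-in at Scx, a transcription factor gene of tendon and ligament cells, and recombination by it is mainly seen in those cells.

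Glycolysis splits glucose to pyruvate, and lactate dehydrogenase turns pyruvate to lactate. Skeletal muscle is known for a high capacity of this pathway, for glycogen as its local glucose store and for phosphocreatine, from which creatine kinase rapidly restores ATP during contraction. Many of these steps have a muscle isoform encoded by one gene and a form of most tissues encoded by another, so the balance of isoforms differs between muscle fibres and the fibroblasts of tendon, which lie side by side where a muscle joins its tendon.

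The isoform pairs of creatine kinase and phosphoglycerate mutase had the widest shifts of balance between the Dicer cKO library and either other one, and the promoters of these 4 genes are shown for that reason. They come from RefSeq (GRCm38.p6), run from 250 bases before to 50 bases after the annotated start and are written 5′ to 3′ on the strand of the gene, with E-boxes in capitals. An E-box is the hexamer CANNTG, which reads the same way on both strands and is bound by myogenic and many other basic helix-loop-helix factors. The promoter of Ckm, the muscle creatine kinase, is at chr7:19410844-19411143 on the plus strand. That of Ckb, the brain-type creatine kinase of most tissues, is at chr12:111672289-111672588 on the minus strand. That of Pgam2, the muscle phosphoglycerate mutase, is at chr11:5803747-5804046 on the minus strand, and that of Pgam1, the form of most tissues, is at chr19:41911621-41911920 on the plus strand.
Ckm: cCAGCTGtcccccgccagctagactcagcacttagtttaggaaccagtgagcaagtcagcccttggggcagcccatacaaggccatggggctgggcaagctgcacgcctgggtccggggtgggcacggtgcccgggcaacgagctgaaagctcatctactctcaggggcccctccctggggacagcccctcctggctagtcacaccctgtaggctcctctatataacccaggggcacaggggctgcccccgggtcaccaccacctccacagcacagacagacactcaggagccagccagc
Ckb: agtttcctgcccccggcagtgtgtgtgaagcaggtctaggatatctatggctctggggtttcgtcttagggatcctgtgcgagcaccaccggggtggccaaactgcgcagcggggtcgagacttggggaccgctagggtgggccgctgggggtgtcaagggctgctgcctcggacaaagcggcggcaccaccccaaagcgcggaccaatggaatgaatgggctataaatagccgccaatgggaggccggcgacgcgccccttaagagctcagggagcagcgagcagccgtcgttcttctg
Pgam2: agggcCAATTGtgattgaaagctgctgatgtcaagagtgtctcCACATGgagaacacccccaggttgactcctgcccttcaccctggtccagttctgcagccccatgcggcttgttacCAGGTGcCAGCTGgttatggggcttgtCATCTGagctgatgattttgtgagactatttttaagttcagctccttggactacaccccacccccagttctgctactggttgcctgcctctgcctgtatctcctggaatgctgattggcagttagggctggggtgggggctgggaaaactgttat
Pgam1: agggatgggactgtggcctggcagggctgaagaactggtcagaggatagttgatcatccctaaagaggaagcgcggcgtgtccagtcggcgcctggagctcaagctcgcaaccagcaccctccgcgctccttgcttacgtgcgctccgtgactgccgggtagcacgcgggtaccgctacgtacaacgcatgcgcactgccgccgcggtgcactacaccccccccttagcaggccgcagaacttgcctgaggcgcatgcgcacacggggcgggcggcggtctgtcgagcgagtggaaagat
In GENCODE on GRCm38, Ckm spans chromosome 7 from 19404776 to 19422841, Ckb chromosome 12 from 111669361 to 111672338, Pgam2 chromosome 11 from 5801640 to 5803733 and Pgam1 chromosome 19 from 41911923 to 41918660, so the Ckm window lies inside the gene span, which has a start further upstream. The windows of Pgam2 and Pgam1 lie wholly upstream of their gene spans. The 2 muscle genes held 1 E-box (Ckm) and 5 E-boxes (Pgam2), and the windows of Ckb and Pgam1 held none. Over the 39 genes with a RefSeq promoter at hand, some with several starts, an E-box was present in 16 of 18 promoters of muscle isoforms, 12 of 15 of shared genes and 10 of 21 of broad isoforms, beside 72.3% of all 32851 promoters of the same length. The form with a GC centre, CAGCTG, was present in 9 of 18 promoters of muscle isoforms, 4 of 15 of shared genes and 1 of 21 of broad isoforms, beside 16.3% of all promoters, and every CAGCTG is also counted as an E-box. A MEF2 match, searched on both strands, was present in 3 of 18, 0 of 15 and 1 of 21 promoters, beside 3.19% of all, and the promoter of Ckb held the one among broad isoforms, from base 222, where it overlaps a TATAAA box from base 223. The core of the hypoxia response element, ACGTG on either strand, was present in 5 of 18, 8 of 15 and 10 of 21 promoters, beside 19.6% of all. A TATAAA box on the strand of the gene was present in 2 of 18, 0 of 15 and 2 of 21 promoters, beside 8.32% of all. Median GC content was 53.5% for muscle isoforms, 61.3% for shared genes and 63.0% for broad isoforms, beside 52.7% for all promoters. These are matches of letters in 1 window per start and not measured binding.

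The counts add up to between 14959399 and 16244232 per library. Dicer1, the floxed gene, had 1919, 2025 and 1621 reads in Control, ScxHt and Dicer cKO tendon, at a Dicer cKO/Control ratio of 0.877 (95% counting interval 0.821 to 0.938), and its count covers the whole gene and not only the floxed part. Tendon fibroblast markers were present in every library. So were the listed markers of skeletal muscle, none of them at 0 reads, so the tissue taken held muscle RNA in all 3 mice. RPKM, the deposited count corrected for feature length and library total, is used below wherever levels of different genes are set side by side. Ratios are of counts divided by DESeq2 size factors of the 2 libraries compared, a gene was analysed when its mean normalized count (baseMean) was above 50, and the study's thresholds were kept, so that higher means a log2 ratio above 0.74 and lower a ratio below 0.60. Counting intervals cover the sampling of reads only. With 1 mouse per genotype the spread between mice is unknown, no test was possible, and a difference between libraries is a difference between 3 mice.

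In the Dicer cKO library the muscle isoforms lay above their levels in both other libraries, while most broad isoforms were level or below. The 44 genes together took 0.463%, 0.472% and 0.662% of the reads in Control, ScxHt and Dicer cKO tendon. Muscle isoforms made up 0.180%, 0.146% and 0.304% of the reads in that order, shared genes 0.198%, 0.229% and 0.276%, and broad isoforms 0.0854%, 0.0967% and 0.0811%. Thus the muscle class was highest in the Dicer cKO library and lowest in the ScxHt library, and the broad class had the opposite order. In whole tissue, more or fewer cells of a type and more or less RNA per cell cannot be told apart. In Control tendon the highest levels per length were those of the shared aldolase gene Aldoa, at 219 RPKM, the mitochondrial creatine kinase Ckmt2, at 192 RPKM, Ckm, at 172 RPKM, and the muscle enolase Eno3, at 104 RPKM. The highest broad isoform was Ldhb, at 40.7 RPKM.

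**Figure D1:**
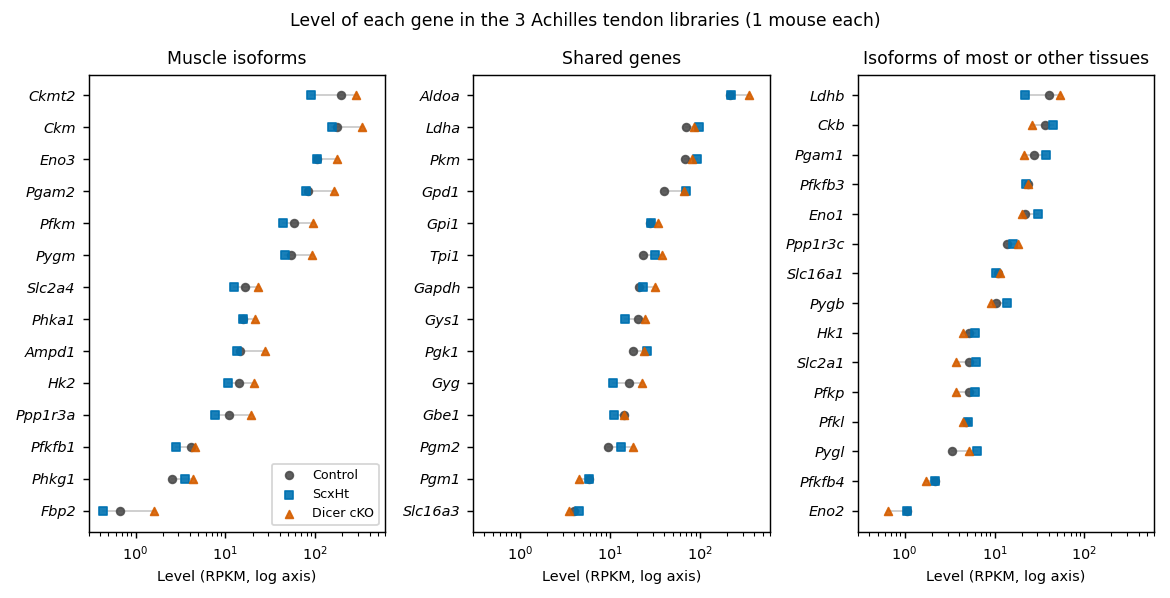
Level of each gene in RPKM (horizontal log axis) in the Control (circle), ScxHt (square) and Dicer cKO (triangle) library, 1 mouse each, with a grey line from the lowest to the highest. In the left panel the triangle lies to the right of both other symbols for all 14 muscle isoforms, while in the right panel it lies to the left for most broad isoforms. Aldoc, with 0 to 2 reads, is not drawn.

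For Dicer cKO/Control, 42 of the 44 genes were analysed, since Aldoc (0, 1 and 2 reads in the Control, ScxHt and Dicer cKO library) and Fbp2 (16, 10 and 35 reads) were under the minimum. Of the 42, 5 were higher, against 3.87% of all 13504 genes analysed, and 1 was lower, against 4.17%. The genes counted as higher were the muscle isoforms Pgam2, Ckm, Ampd1 and Ppp1r3a and the shared gene Pgm2, and the lower one was Eno2. These counts depended on the scaling, since dividing by total counts gave 9 higher and 0 lower, and taking the Gapdh count as the scale gave 0 higher and 9 lower. The whole interval lay above 1 for 26 genes, against 21.5% of all genes, and below 1 for 11, against 28.4%. By class, it lay above 1 for 12 of 13 muscle isoforms, 11 of 14 shared genes and 3 of 15 broad isoforms, and below 1 for 0, 2 and 9 of them. The median log2 ratio was 0.68 for muscle isoforms, 0.29 for shared genes and -0.23 for broad isoforms, beside -0.03 for all genes analysed. Muscle minus broad came to 0.91 on the log2 scale, a 1.88-fold difference of medians that no scaling of the libraries can move. With the Gapdh count as the scale, the medians were 0.18, -0.21 and -0.73 for muscle, shared and broad, so the shared class turned negative, and 9 of 13 muscle isoforms stayed above 0.

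For ScxHt/Control, a comparison of mice that both have Dicer, the order of the classes was turned round. Only 1 of 42 genes was higher (Pygl), against 3.05% of all 13563 genes analysed, and 2 were lower (Ckmt2 and Ldhb), against 4.73%. Scaled by total counts, 2 were higher and 2 lower, and 11 of 13 muscle isoforms lay below Control. The interval lay above 1 for 12 genes, against 26.4%, and below 1 for 19, against 23.7%. Of the 13 muscle isoforms analysed, 12 had an interval below 1, and the exception was Phkg1, a catalytic subunit of phosphorylase kinase, whose interval lay above 1. The median log2 ratio was -0.31 for muscle isoforms, 0.05 for shared genes and 0.11 for broad isoforms, beside 0.02 for all genes analysed.

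Set against ScxHt, which also carries the Cre allele, the Dicer cKO library had 15 of 42 genes higher, against 7.67% of all 13555 genes analysed, and 1 lower (Pgam1), against 5.68%. Those higher were 11 of 13 muscle isoforms, the shared genes Aldoa, Gys1 and Gyg and the broad isoform Ldhb. With the Gapdh count as the scale 3 were higher and 11 lower, the shared median was -0.17 and 11 of 13 muscle isoforms lay above 0, and with total counts 12 were higher and 3 lower. The interval lay above 1 for 25 genes, against 24.8%, and below 1 for 13, against 30.5%, and it lay above 1 for all 13 muscle isoforms. The median log2 ratio was 1.06 for muscle isoforms, 0.33 for shared genes and -0.34 for broad isoforms, beside -0.03 for all genes. The 3 comparisons share libraries and are given side by side, not as support for one another.

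**Figure D2:**
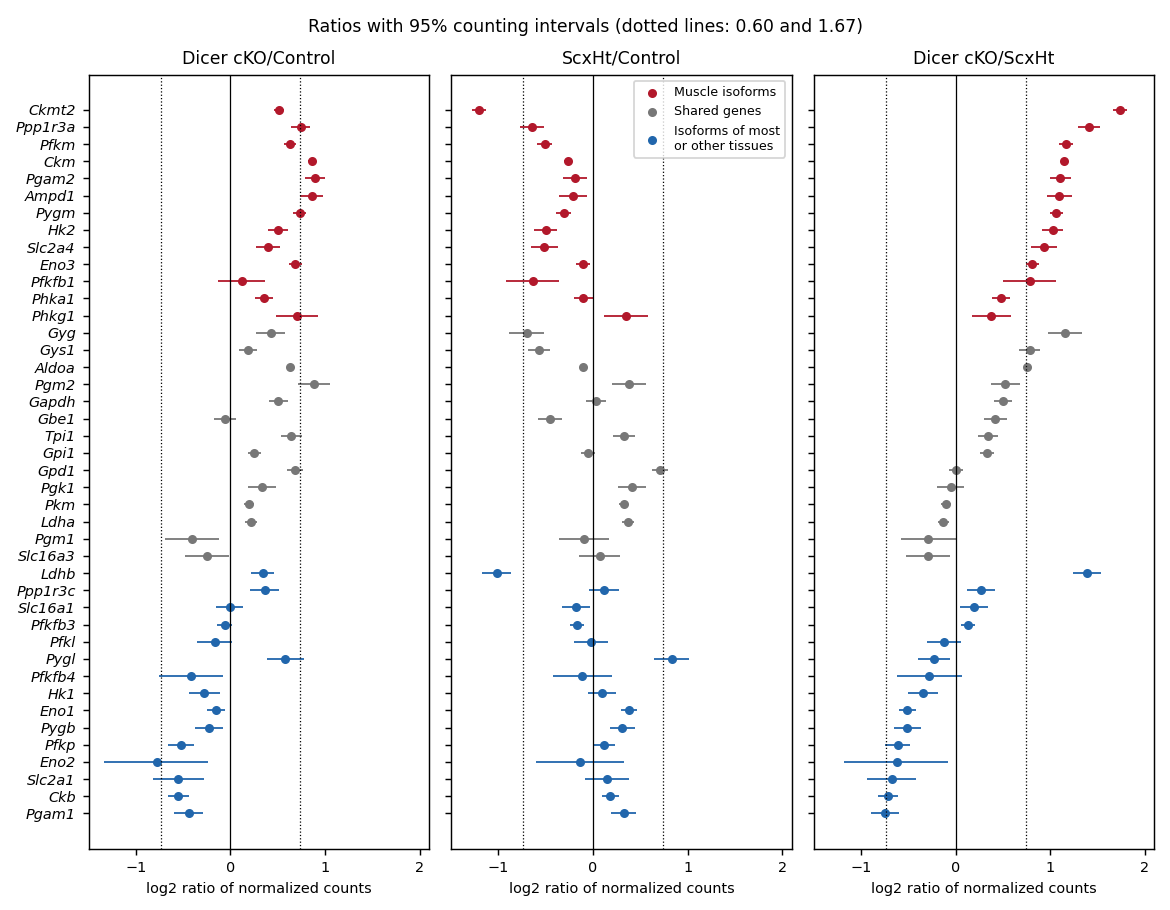
log2 ratio of normalized counts (points) with its 95% counting interval (bars) for the 42 genes analysed, in 1 panel per comparison, coloured by class, with dotted lines at the thresholds for lower and higher. The 13 muscle isoforms sit right of 0 in the first and last panel and, except Phkg1, left of 0 in the middle one, and Ldhb stands apart from the other broad isoforms.

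Across the 3 libraries, 11 of 13 muscle isoforms, 3 of 14 shared genes and 1 of 15 broad isoforms had the order Dicer cKO above Control above ScxHt with neither neighbouring interval holding 1, an order found in 6.09% of all 13532 genes. The exceptions among muscle isoforms were Phkg1, which was lowest in the Control, and Pfkfb1, whose Dicer cKO/Control interval held 1. The opposite order, ScxHt above Control above Dicer cKO, was found in 4 broad isoforms (Ckb, Eno1, Pgam1 and Pygb) and in no muscle isoform or shared gene, and in 6.43% of all genes.

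Glucose enters muscle fibres through GLUT4, encoded by Slc2a4, and most other cells through GLUT1, encoded by Slc2a1. Slc2a4 had 937, 684 and 1188 reads in Control, ScxHt and Dicer cKO tendon. Slc2a1 had 295, 341 and 194 reads, lowest in Dicer cKO, and its ScxHt/Control interval held 1. The Dicer cKO/ScxHt ratio was 1.91 (1.74 to 2.11) for Slc2a4 and 0.627 (0.523 to 0.7498) for Slc2a1. Hexokinase, which traps glucose as its phosphate, also split by isoform, with 1359, 1002 and 1852 reads of Hk2, the form of insulin-responsive tissues, and 724, 806 and 576 reads of Hk1, the form of most tissues. Hk2 showed a Dicer cKO/Control ratio of 1.42 (1.32 to 1.52) and Hk1 one of 0.826 (0.739 to 0.923), while the ScxHt/Control interval of Hk1 held 1.

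Phosphofructokinase makes the committed step of glycolysis. Its muscle gene Pfkm (chromosome 15, 98092589 to 98132451) had 3123, 2289 and 4657 reads in Control, ScxHt and Dicer cKO tendon, at a Dicer cKO/Control ratio of 1.55 (1.48 to 1.62) beside 0.702 (0.665 to 0.742) for ScxHt/Control. The platelet-type gene Pfkp had 1124, 1268 and 753 reads and a Dicer cKO/Control ratio of 0.696 (0.634 to 0.764). The liver-type gene Pfkl, with 520, 535 and 446 reads, had an interval that held 1 in all 3 comparisons. In the lower part of the pathway, Pgam2 had 1133, 1035 and 2024 reads and Pgam1 821, 1074 and 582 reads, and their Dicer cKO/Control ratios were 1.86 (1.72 to 1.997) and 0.736 (0.661 to 0.820). For enolase, the muscle gene Eno3 had 2927, 2845 and 4529 reads, with a ratio of 1.61 (1.53 to 1.68), and the gene of most tissues Eno1 had 1885, 2559 and 1629 reads, with a ratio of 0.897 (0.839 to 0.959). Eno2, the neuronal enolase, had 82, 78 and 46 reads, and the interval of its Dicer cKO/Control ratio of 0.583, from 0.397 to 0.846, reached across the threshold of 0.60. At each of these steps the muscle gene was highest in the Dicer cKO library, where the other forms had their lowest counts, for Pfkl within counting error.

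The shared glycolytic genes did not form a single group. Aldoa had 10344, 10059 and 15431 reads in Control, ScxHt and Dicer cKO tendon, and was 1.55-fold (1.51 to 1.59) above Control in the Dicer cKO library. Gapdh, a dehydrogenase often used to normalize real-time PCR, and used so in the study, had 1416, 1506 and 1934 reads and a Dicer cKO/Control ratio of 1.42 (1.32 to 1.52). Tpi1, the triose phosphate isomerase, had 1048, 1375 and 1576 reads and a ratio of 1.56 (1.44 to 1.69). Gpi1, the glucose phosphate isomerase, with 2888, 2905 and 3314 reads, had a ratio of 1.19 (1.13 to 1.25). In contrast, Pkm, the pyruvate kinase, with 5592, 7298 and 6166 reads, and the phosphoglycerate kinase gene Pgk1, with 665, 922 and 806 reads, were highest in the ScxHt library. Their ScxHt/Control ratios were 1.25 (1.21 to 1.30) for Pkm and 1.33 (1.20 to 1.47) for Pgk1, the latter with a Dicer cKO/ScxHt interval that held 1. The Pkm line adds the muscle and the other splice form, which gene counts do not separate.

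Several of the genes have near-identical copies with which reads may be shared, so that their level is uncertain. A copy was an annotated transcript with at least 95% identity over at least 300 bases of the coding sequence. In the count table Pgam1-ps2 had 394, 540 and 286 reads, Eno1b 765, 1272 and 760 reads and Pgk1-rs7 366, 430 and 398 reads, between 40.6% and 55.04% of the reads of their parent genes. Gapdh had 78 such copies in the annotation, of which 4 lines were found by name, with 7, 7 and 20 reads in all. With the reads of its copy added, the ScxHt/Control log2 ratio of Eno1 was 0.47, and the counts of higher and lower genes did not change in any comparison.

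Lactate dehydrogenase included the one broad isoform with the order of the muscle class. Ldhb (chromosome 6, 142490249 to 142507957), the heart-type subunit, which slow muscle fibres also use, had 1038, 534 and 1264 reads in Control, ScxHt and Dicer cKO tendon, with a ScxHt/Control ratio of 0.493 (0.443 to 0.548) and a Dicer cKO/ScxHt ratio of 2.61 (2.36 to 2.89). Ldha, the subunit of fast muscle and of many other tissues, had 3769, 5086 and 4214 reads and was highest in the ScxHt library, with a ScxHt/Control ratio of 1.29 (1.24 to 1.35). Its Dicer cKO/Control ratio was 1.16 (1.11 to 1.21). Of the lactate carriers, neither was counted as higher or lower in any comparison. Slc16a1, encoding MCT1, had 791, 729 and 757 reads and a Dicer cKO/Control ratio of 0.994 (0.898 to 1.10). Slc16a3, encoding MCT4, had 342, 375 and 278 reads and a ratio of 0.844 (0.718 to 0.992).

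Among glycogen genes, the muscle phosphorylase Pygm, which releases glucose phosphate from glycogen, had 2794, 2351 and 4464 reads in Control, ScxHt and Dicer cKO tendon. Its Dicer cKO/Control ratio of 1.66 (1.58 to 1.74) lay just under the threshold, and that of Ppp1r3a, 1.671 (1.56 to 1.79), just over it. Ppp1r3a, which targets a phosphatase to glycogen in muscle, had 1254, 839 and 2018 reads. The brain-type phosphorylase Pygb had 808, 1045 and 665 reads, the opposite order to Pygm. The liver-type Pygl (chromosome 12, 70190811 to 70231488) differed from both, with 375, 696 and 539 reads, a ScxHt/Control ratio of 1.78 (1.57 to 2.02) and a Dicer cKO/Control ratio of 1.49 (1.31 to 1.71). Ppp1r3c, the targeting subunit of many tissues, had 605, 684 and 748 reads, at a Dicer cKO/Control ratio of 1.28 (1.15 to 1.43).

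The phosphorylase kinase subunit Phka1 had 1610, 1562 and 1981 reads and Phkg1 272, 362 and 426 reads in the same order of libraries, with Dicer cKO/Control ratios of 1.28 (1.20 to 1.37) and 1.63 (1.39 to 1.90). Genes of glycogen synthesis were lowest in the ScxHt library. Gys1, the glycogen synthase of muscle and most tissues, had 1592, 1118 and 1744 reads and a ScxHt/Control ratio of 0.673 (0.623 to 0.727). Gyg, glycogenin, the primer of new glycogen particles, had 621, 398 and 804 reads and a ratio of 0.614 (0.540 to 0.698). Gbe1, the branching enzyme, had 1235, 940 and 1142 reads and a ratio of 0.729 (0.669 to 0.795), and its Dicer cKO/Control interval held 1. Pgm2 had 447, 606 and 792 reads and the highest Dicer cKO/Control ratio of the shared genes, 1.84 (1.64 to 2.07), while Pgm1 had 244, 238 and 177 reads and a ratio of 0.753 (0.617 to 0.918). The symbols of these phosphoglucomutases were exchanged between annotations, so it cannot be told which enzyme each line counts.

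In both comparisons of Dicer cKO, the phosphocreatine genes included the clearest split between isoforms. Ckm had 8151, 7078 and 14254 reads in Control, ScxHt and Dicer cKO tendon, at a Dicer cKO/Control ratio of 1.82 (1.77 to 1.87) beside 0.832 (0.806 to 0.859) for ScxHt/Control. Ckb had 1724, 2044 and 1133 reads, with ratios of 0.682 (0.633 to 0.736) and 1.14 (1.07 to 1.21). Ckm was thus highest and Ckb lowest in the Dicer cKO library. Ckmt2 (chromosome 13, 91853387 to 91876885), the creatine kinase of muscle mitochondria, had 4630, 2098 and 6353 reads and the largest distance of any of the 42 genes in a comparison, a Dicer cKO/ScxHt ratio of 3.34 (3.18 to 3.51). It differed less between Dicer cKO and Control, at 1.42 (1.37 to 1.48), than between ScxHt and Control, at 0.434 (0.412 to 0.457). Ampd1, the muscle deaminase that clears AMP when ATP is spent, had 833, 750 and 1454 reads and a Dicer cKO/Control ratio of 1.81 (1.66 to 1.98).

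On the side branches, Gpd1 (chromosome 15, 99717515 to 99725005), the glycerol phosphate dehydrogenase of muscle and fat, had 1898, 3229 and 2933 reads in Control, ScxHt and Dicer cKO tendon, at a Dicer cKO/Control ratio of 1.605 (1.51 to 1.70) and a ScxHt/Control ratio of 1.63 (1.54 to 1.73). Like Pgk1, it was above Control in both libraries with the Cre allele and had a Dicer cKO/ScxHt interval, here 0.952 to 1.05, that held 1. The 8 adipocyte markers summed to 518, 653 and 580 RPKM and were mixed, with Dicer cKO/Control ratios from 0.425 to 1.62 (4 intervals above and 2 below 1) and ScxHt/Control ratios from 0.962 to 1.58 (5 above and 1 below). The part of adipocyte RNA in the Gpd1 ratio was not tested. Of the genes for the bifunctional enzymes that set the bisphosphate activator of phosphofructokinase, Pfkfb3 had 2904, 2694 and 2677 reads, Pfkfb1 267, 179 and 279 reads and Pfkfb4 173, 167 and 125 reads, and none was higher or lower in Dicer cKO/Control. Fbp2, the muscle fructose bisphosphatase, had 16, 10 and 35 reads, too few for the minimum, and its Dicer cKO/Control ratio was 2.27 with an interval from 1.22 to 4.40.

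Within a library, the share of the muscle isoform in an enzyme step needs no scaling between libraries. At 9 steps with both kinds of isoform, the median share of the muscle isoform in the summed RPKM of the step was 76.2%, 67.8% and 86.5% in Control, ScxHt and Dicer cKO tendon. The share was highest in the Dicer cKO and lowest in the ScxHt library at each of the 9 steps. For cytosolic creatine kinase it was 82.5%, 77.5% and 92.6% in Control, ScxHt and Dicer cKO tendon. For phosphoglycerate mutase it was 75.0%, 67.8% and 88.3%, and for the glucose transporters 76.2%, 66.9% and 86.1%. The muscle form was the smaller one in all libraries only for Pfkfb1 among the bifunctional enzymes, at 13.7%, 10.2% and 15.5%. For the glycogen-targeting subunit, the muscle form Ppp1r3a was the smaller one in Control and ScxHt but not in Dicer cKO, at 44.7%, 32.4% and 51.3%.

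The odds of a muscle read against a broad read give the same balance from read counts. Gene length drops out of their ratio between libraries where a step has 1 broad isoform. It does not for phosphofructokinase, enolase, glycogen phosphorylase and the bifunctional enzymes, whose broad reads are summed over genes. For Dicer cKO/Control the odds ratio had an interval (from the counts, on the log scale) above 1 at 8 of 9 steps, with a median of 1.82. It was highest for cytosolic creatine kinase, at 2.66 (2.46 to 2.88), and phosphoglycerate mutase, at 2.52 (2.22 to 2.87), and for the bifunctional enzymes, at 1.15 (0.963 to 1.37), it held 1. For ScxHt/Control it lay below 1 at 9 of 9 steps, from 0.572 for glycogen phosphorylase to 0.732 for cytosolic creatine kinase, the nearest to 1. For Dicer cKO/ScxHt it lay above 1 at 9 of 9 steps, between 1.59 and 3.63. With the reads of near-identical copies added to the broad side, the muscle share of reads was 48.3%, 39.1% and 70.0% for phosphoglycerate mutase and 51.7%, 42.1% and 65.0% for enolase, in the order Control, ScxHt and Dicer cKO.

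**Figure D3:**
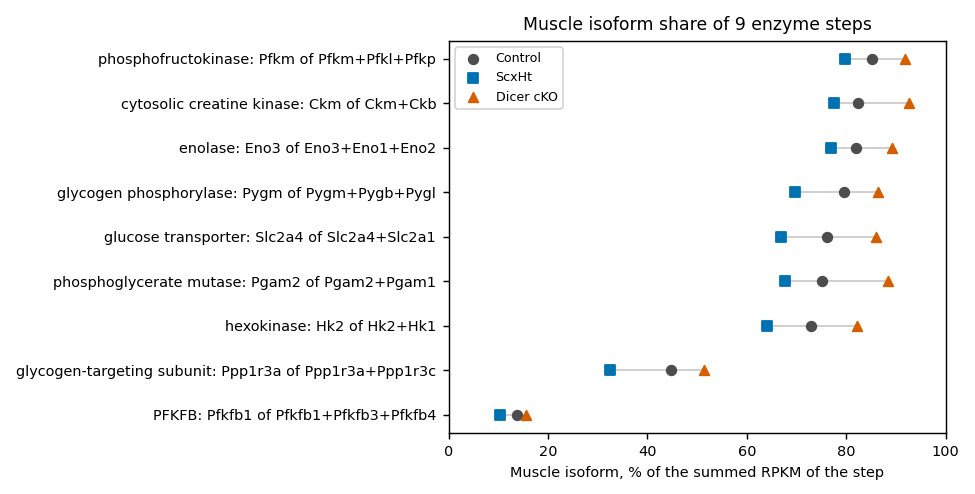
Share of the muscle isoform in the summed RPKM of 9 enzyme steps (horizontal axis, percent) in the Control (circle), ScxHt (square) and Dicer cKO (triangle) library, 1 mouse each. At every step the square is leftmost and the triangle rightmost, and the steps range from 13.7% for the bifunctional enzymes (PFKFB) to 85.2% for phosphofructokinase in the Control library.

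Markers of muscle and tendon cells differed between the libraries beside these genes. The muscle markers were grouped in 3 lists, fast, slow and both fibre types, but the fast list holds Acta1, the actin of all skeletal fibres, and the slow list Myh2, the myosin of fast oxidative fibres. With Acta1 counted among both types and Myh2 among the fast markers, a choice made after seeing the data, the 12 fast markers summed to 2376, 2447 and 5195 RPKM in Control, ScxHt and Dicer cKO tendon, the 8 slow markers to 1527, 607 and 2013 RPKM and the 11 of both types to 5124, 3080 and 8605 RPKM, with no marker of these lists at 0 reads. Summed tendon fibroblast markers were 20119, 18764 and 11661 RPKM, of which Col1a1 alone gave 11832, 8948 and 6704 RPKM. In the same grouping the median Dicer cKO/Control ratio was 2.06 for fast, 1.25 for slow and 1.63 for both-type markers, beside 1.61 for the 13 muscle isoforms and 0.558 for tendon fibroblast markers. All 13 isoforms lay below the fast median. For ScxHt/Control the medians were 0.905, 0.378 and 0.525, beside 0.806 for the muscle isoforms, and for Dicer cKO/ScxHt they were 2.26, 3.61 and 3.21, beside 2.09. The tendon fibroblast median was 1.28 for ScxHt/Control, with 9 of 12 intervals above 1 and 3 below. For Dicer cKO/ScxHt it was 0.530, with all 12 intervals below 1.

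The fast markers were uneven in ScxHt/Control, where 5 of 12 had an interval above 1 and 7 below, while all 8 slow and all 11 both-type markers lay below 1. Acta1 had 85448, 51113 and 130878 reads, a Dicer cKO/Control ratio of 1.59 (1.58 to 1.604). Myh4, a fast myosin heavy chain, had 8125, 39836 and 49811 reads and was far above Control in both libraries with the Cre allele, at 6.37-fold (6.22 to 6.52) in Dicer cKO and 4.70-fold (4.59 to 4.81) in ScxHt. Of the 13 muscle isoforms, Phkg1 was above Control in both of these libraries, at 1.63-fold and 1.28-fold, and the other 12 were below Control in the ScxHt library. The part of the muscle markers' differences in the isoform ratios was not tested.

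**Figure D4:**
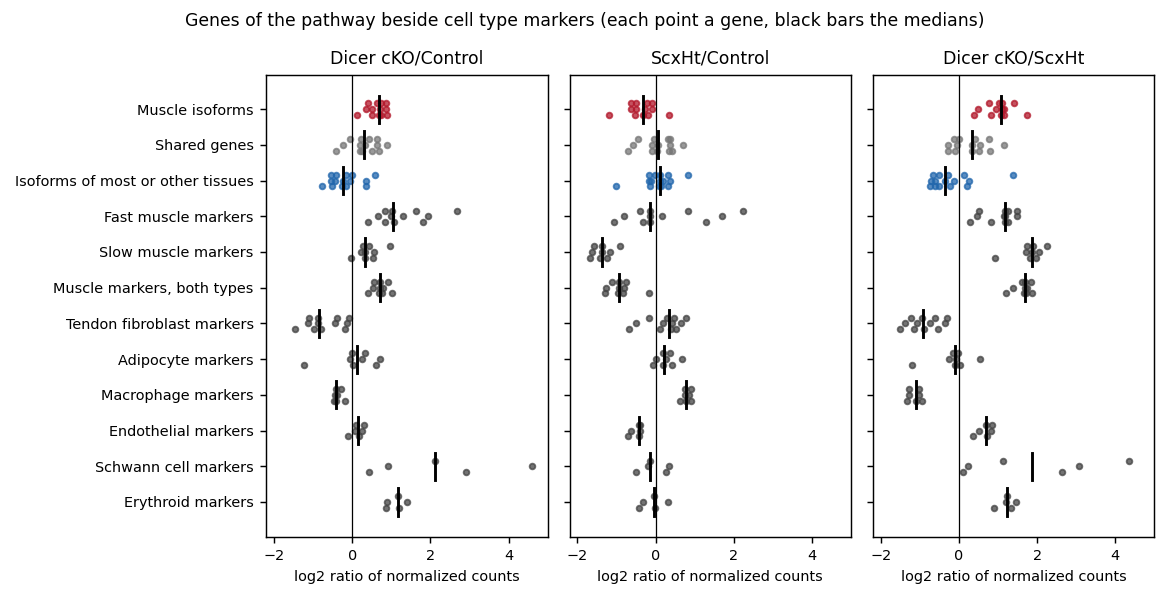
log2 ratio of normalized counts of the muscle, shared and broad genes and of 9 marker lists in the 3 comparisons, with each gene a point and each median a black bar. The fast list is drawn with Acta1 and the slow list with Myh2. In ScxHt/Control the muscle isoforms, with a median of -0.31, lie above the slow and both-type medians of -1.38 and -0.93 and below the fast median of -0.14.

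Markers of other cell types differed too. The median Dicer cKO/Control ratio was 4.36 for Schwann cell markers, of which 5 of 8 were analysed, 2.26 for erythroid markers (5 of 6), 0.753 for macrophage markers (7 of 8), 1.10 for endothelial markers (6 of 6) and 1.09 for adipocyte markers (8 of 8). Of 6 neuron markers, 5 were at 0 reads in the Control library and 1, Uchl1, was analysed, which was higher in Dicer cKO/Control at 1.997 (1.47 to 2.74), while the neuronal enolase Eno2 was lower. Macrophage markers had a median ScxHt/Control ratio of 1.72, with 6 of 7 counted as higher. Beside it stand Pygl, the liver-type phosphorylase also known from blood cells, at 1.78, and Ldha and Pkm. In Dicer cKO/Control, where the macrophage median was 0.753, Pygl, Ldha and Pkm stood at 1.49, 1.16 and 1.15. The part of macrophage RNA in these ratios was not tested. Endothelial markers had a median ScxHt/Control ratio of 0.741, with all 6 intervals below 1. Their median Dicer cKO/ScxHt ratio was 1.63, with all 6 intervals above 1. For Dicer cKO/Control, 4 of their 6 intervals lay above 1 and 0 below. By these medians the endothelial list had the order of most muscle isoforms, Dicer cKO above Control above ScxHt. The part of endothelial RNA in the isoform ratios was not tested.

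The pathway around the 44 genes was covered by 66 others, of which 50 were analysed. For Dicer cKO/Control 4 were higher and 2 lower, against 3.87% and 4.17% of all genes, with a median ratio of 1.10. For ScxHt/Control 1 was higher and 0 lower, against 3.05% and 4.73%, and for Dicer cKO/ScxHt 12 were higher and 2 lower, against 7.67% and 5.68%. The lower counts and that of ScxHt/Control are thus at or below the share of all genes. The highest was Pdk4, a kinase that inhibits pyruvate dehydrogenase, with 3028, 2834 and 8522 reads in Control, ScxHt and Dicer cKO tendon and a Dicer cKO/Control ratio of 2.92 (2.80 to 3.05). The others higher were Gatm and Gamt, which make creatine, with ratios of 1.87 (1.36 to 2.60) and 1.75 (1.15 to 2.69), and the glycogen-binding protein gene Stbd1, at 1.78 (1.33 to 2.41), all with at most 127 reads in any library. Lower were Ak4, a mitochondrial adenylate kinase, with 395, 463 and 188 reads and a ratio of 0.494 (0.413 to 0.589), and the glycogen-targeting subunit gene Ppp1r3b, at 0.551 (0.396 to 0.761). Ak1 and Adssl1, muscle genes of adenylate metabolism, had the order of the muscle isoforms, with 2686, 2169 and 3921 reads for Ak1 and 1339, 954 and 2044 reads for Adssl1. Of 11 hypoxia response genes analysed outside the 44, none was higher and 1, Car9, was lower in Dicer cKO/Control, with a ratio of 0.591 (0.434 to 0.799). The median over the 11 was 0.877. The interval lay below 1 for 8 of the 11, against 28.4% of all genes, and above 1 for 0, against 21.5%. For ScxHt/Control the median was 0.896, with 5 intervals below 1, against 23.7%, and 2 above, against 26.4%. For Dicer cKO/ScxHt it was 0.954, with 3 below, against 30.5%, and 3 above, against 24.8%.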

How the data were processed

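RNA-seq counts of Achilles tendon from 3 libraries, 1 per genotype, were analysed. Small RNA-seq was not used here. Adaptors were trimmed, TopHat and Bowtie2 placed the paired-end reads on GRCm38, HTSeq assigned them to genes, and the authors deposited these raw counts without normalization. The RPKM values were deposited per library, and the feature lengths they imply agreed within 1% across libraries for all 10250 genes with over 100 reads. Tool versions, annotation release and strand setting are not given in the sources used here, so overlapping genes cannot be separated. Of 54189 lines, 463 repeat another, and Pygm and Pgm2 have 2 nearly equal lines each, of which the first was used. The authors' DESeq2 step used shrinkage, and none was applied here.

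Size factors came from DESeq2 1.42.0 in R 4.3.3, and ratios, 95% Clopper-Pearson intervals and shares from scipy 1.17.1, pandas 2.3.3 and numpy 2.4.6 under Python 3.11.15. A count of 3 reads was the floor. Figures were drawn with matplotlib 3.10.9. Positions of genes and copies came from GENCODE on GRCm38 and promoters from RefSeq. All 44 genes are named, with the other pathway genes past a threshold in Dicer cKO/Control and a few markers. Of the other pathway genes past a threshold only in Dicer cKO/ScxHt, just Ak1 and Adssl1 are named. The genes, classes and lists were chosen with earlier results of these data known. Alternatives were other scalings (edgeR 4.0.16 TMM, total counts, Gapdh), minimum baseMeans, a pseudocount, thresholds and isoform shares of reads. The ratio step was tested on simulated data that held only the sampling of reads, the spread its intervals assume. The simulated counts were scaled by known totals, so neither the size factors nor the spread between mice were tested. No p-value was computed.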

Additional observations from a re-analysis of the deposited data

How the results depend on the processing

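With 1 mouse per genotype no result has a check against the spread between mice, and no library could be left out. No paired analysis was possible because each genotype has 1 library. The difference of medians between muscle and broad isoforms kept its direction in all alternatives, but the scalings could not move it by construction. Without Ldhb, a choice made after seeing the data, this difference was 0.94, -0.42 and 1.49 on the log2 scale for Dicer cKO against Control, ScxHt against Control and Dicer cKO against ScxHt. Counts of genes past the thresholds depended on the setting. For Dicer cKO/Control, 9 were higher and 0 lower with total counts, 0 and 9 with the Gapdh count as the scale, 0 and 0 with thresholds of 2 and 0.5, and 2 and 0 when the whole interval had to pass, and 0 were lower at a minimum baseMean of 200. For ScxHt/Control, 2 were higher with total counts, 0 with thresholds of 2 and 0.5 and 0 when the whole interval had to pass. For Dicer cKO/ScxHt, 3 were higher and 11 lower with the Gapdh scale, 3 were lower with total counts, and 0 were lower with TMM scaling, with size factors over all 3 libraries, with thresholds of 2 and 0.5 and when the whole interval had to pass. The median of all genes moved by -0.50 on the log2 scale with the Gapdh count in both comparisons of Dicer cKO, by the construction of that scale, and by 0.10 with total counts in ScxHt/Control. By read counts instead of RPKM the median muscle isoform share was 65.5%, 55.4% and 77.7% in Control, ScxHt and Dicer cKO tendon. Among values of single genes under an alternative, 106 moved beyond their counting interval, 800 did not, and none changed sign while counted as higher or lower. Eno2 with 82 reads or fewer, and Fbp2 and Aldoc below it, are limited by depth.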
